A study of Mus musculus with 6 samples.

Results

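The 10 genes described here encode the D-type cyclins (Ccnd1, Ccnd2 and Ccnd3) and the inhibitors of cyclin-dependent kinases (CDKs), which are the Cip/Kip genes Cdkn1a, Cdkn1b and Cdkn1c and the INK4 genes Cdkn2a, Cdkn2b, Cdkn2c and Cdkn2d. They were taken by gene symbol, and all 10 were on the array among 19057 genes, with 25 of its 45281 probes. RNA was measured in TA (tibialis anterior) muscles of male C57Bl/6J mice labelled as 3 months old, on Illumina bead arrays with 1 array per muscle. In 3 muscles AAV8-Prox1, an adeno-associated virus encoding the transcription factor Prox1, had been injected. In the 3 control muscles AAV8-mCherry, encoding a red reporter protein with a nuclear localization signal, had been injected, so that both groups carried virus and injection. The methods place the control vector in the opposite leg, but which of the 6 muscles share a mouse is not in the labels. The promoter that drives Prox1 in the vector is not given in the sources used here.

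A cell commits to dividing in the G1 phase, when D cyclins activate Cdk4 and Cdk6 and these kinases phosphorylate the retinoblastoma protein, which releases E2F transcription factors. INK4 proteins bind Cdk4 and Cdk6 and keep the D cyclins off, and Cip/Kip proteins inhibit the kinase complexes of several cyclins. Muscle fibres do not divide, and myoblasts leave the cell cycle for good as they differentiate. The products of Cdkn1a and Cdkn1c and the retinoblastoma protein take part in this exit. The study followed cyclin D1 and proliferation in cultured myoblasts after silencing of Prox1, and the arrays show the same gene family in whole adult muscle with added Prox1.

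Each value is a quantile-normalized log2 signal, and a signal of 7 was taken as the limit above background. The median signal was 6.61 in each array, and 10667 to 10672 probes per array reached the limit. Both array probes of Prox1 lay under it in all 6 arrays, so the vector's Prox1 could not be checked with them. The muscle fibre markers Acta1, Ckm, Mb, Ttn, Myh1, Myh4, Tnnt3 and Pvalb were all above the limit, while the satellite cell genes Pax7 and Myf5 and all 7 measured lymphocyte markers were under it. In whole muscle, fewer cells of a type and less RNA per cell cannot be told apart.

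Of the 10 genes, Cdkn1c was higher with AAV8-Prox1, and Cdkn1a and Cdkn2b were lower, at an adjusted p under 0.05 from limma, whereas the other 7 genes, among them all 3 D cyclins, did not pass. Of all 19057 genes 9.44% were called, 5.23% higher and 4.21% lower, beside which stand the 3 called genes here. By probe, 3 of the 25 passed and 5 had groups that did not overlap, where 6.02% and 18.7% of all probes did. Of the 8 genes with a mean signal of 7 or more, 2 were called, beside 24.3% of all 6734 such genes. The muscles of the groups did not overlap for 4 of the 10 genes, against 23.3% of all genes, and for 3 of the 8 above background, against 43.1%. The median log2 fold change of the 10 genes was -0.04, and 1 called gene rose while 2 fell.

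**Figure D1:**
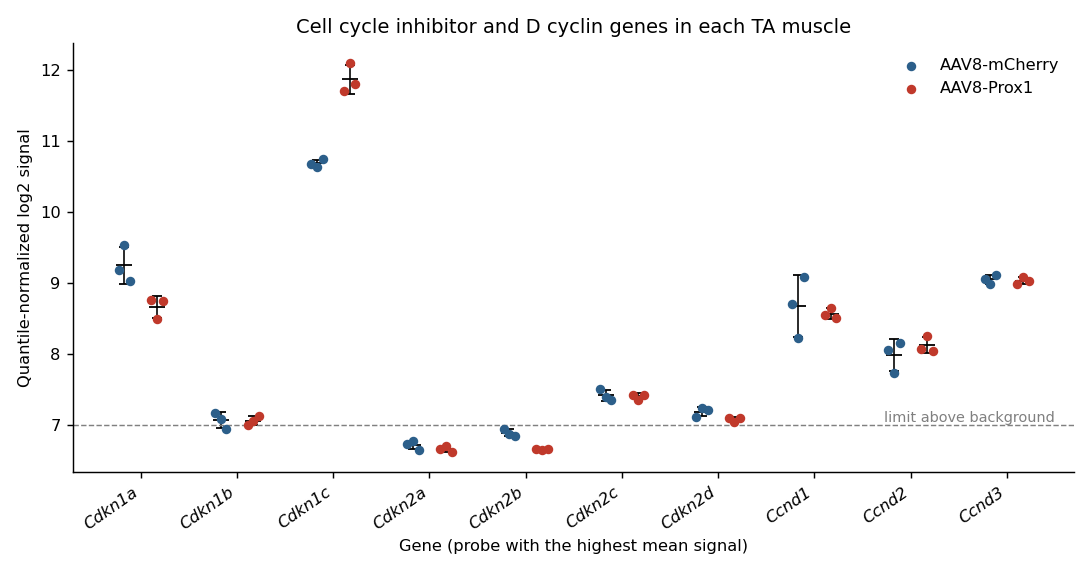
Quantile-normalized log2 signal (y axis) of the brightest probe of each gene (x axis) in 3 AAV8-mCherry muscles (blue) and 3 AAV8-Prox1 muscles (red), with the mean and SD of each group in black and the limit above background as a dashed line. Cdkn1c lies higher and Cdkn1a lower in every AAV8-Prox1 muscle than in any control muscle, whereas Ccnd1 spreads from 8.23 to 9.09 among the controls. Levels of different genes come from different probes and cannot be ranked.

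Stretches of DNA before the starts of Cdkn1a are shown because this gene fell and both p53 and MyoD are known to activate it. RefSeq (GRCm38.p6) places Cdkn1a on chromosome 17 at 29090979 to 29100722, on the plus strand. Its promoter table held 7 of the 10 genes, with 11 windows, and had no entry for Cdkn1c, Ccnd1 or Ccnd2. The 250 bases before each of the starts of Cdkn1a run 5′ to 3′, with capitals for the p53 core pattern CATGNNNNNNCATG and for the E-box CANNTG, the letters that MyoD family proteins bind.
Cdkn1a, chr17:29090729-29090978: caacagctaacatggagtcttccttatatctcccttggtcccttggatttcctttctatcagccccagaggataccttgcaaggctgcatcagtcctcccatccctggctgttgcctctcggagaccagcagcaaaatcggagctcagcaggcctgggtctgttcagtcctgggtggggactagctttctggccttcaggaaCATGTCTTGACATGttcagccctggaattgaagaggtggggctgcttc
Cdkn1a, chr17:29093519-29093768: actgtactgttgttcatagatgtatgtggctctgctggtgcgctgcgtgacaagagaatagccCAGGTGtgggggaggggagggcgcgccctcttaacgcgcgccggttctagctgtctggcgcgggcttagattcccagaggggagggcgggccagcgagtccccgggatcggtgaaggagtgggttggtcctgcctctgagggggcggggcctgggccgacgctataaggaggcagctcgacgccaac
The p53 core pattern begins 48 bases before the first start and was found in no other window of these genes, and 0.49% of all 32851 windows of the table hold it. An E-box occurred once before the second start and once before Cdkn2b, in 2 of 11 windows, where 66.2% of all windows hold at least 1. Both patterns read the same on either strand, and they do not overlap each other in these windows. A match of letters does not show that a protein binds there.

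Among the Cip/Kip genes, Cdkn1c was 2.27-fold higher with AAV8-Prox1. It encodes p57, lies on chromosome 7 at 143458339 to 143461059 (GRCm38.p6), and in mice it is imprinted and expressed from the maternal copy. Its only probe gave log2 signals of 11.70, 12.10 and 11.80 in the AAV8-Prox1 muscles and 10.68, 10.64 and 10.74 in the control muscles. The groups lay far apart, and the controls differed among themselves by no more than 0.10 on the log2 scale. The group means were 11.87 ± 0.21 and 10.69 ± 0.05 (SD, n = 3 each), with a log2 fold change of 1.18 (standard error 0.10, 95% confidence interval 0.96 to 1.40, adjusted p = 0.000649). A log2 fold change of 1 or more in either direction was found in 1.87% of the 6734 genes above background. Cdkn1c passed under every alternative that was run. The log2 fold change of Cdkn1c stayed between 1.06 and 1.26 when any 1 array was left out.

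Cdkn1a, which encodes p21, was 1.50-fold lower by its brightest probe. This probe gave 8.76, 8.49 and 8.74 with AAV8-Prox1 and 9.18, 9.54 and 9.03 in controls, so that every AAV8-Prox1 muscle lay below every control muscle. The log2 fold change was -0.59 (standard error 0.13, 95% confidence interval -0.89 to -0.28, adjusted p = 0.0425). The second probe gave 7.17, 7.14 and 7.32 against 7.70, 7.88 and 7.38, also without overlap, and did not pass (log2 fold change -0.44, adjusted p = 0.0827). The third gave 7.12, 7.22 and 7.17 against 7.49, 7.66 and 7.15, where the third control lay among the AAV8-Prox1 muscles (log2 fold change -0.26, adjusted p = 0.331). All 3 probes thus pointed downward, and only the brightest was called. Averaging all 3 probes gave -0.43 (adjusted p = 0.0797). The brightest probe failed without any 1 of the AAV8-Prox1 muscles (adjusted p = 0.0823, 0.143 and 0.0866 without replicates 1, 2 and 3) and without control replicate 1 (adjusted p = 0.0836). Without control replicate 3, in which all 3 probes were lowest among the controls, each of the 3 probes passed, at log2 fold changes of -0.70, -0.58 and -0.41. Leaving out the lowest control widens a downward difference in any case, so these passes are no separate evidence.

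Cdkn1b, which encodes p27, lay at the limit above background. Its brightest probe gave 7.0, 7.06 and 7.13 with AAV8-Prox1 and 7.17, 7.08 and 6.95 in controls. The groups overlapped, with a log2 fold change of -0.0033 (95% confidence interval -0.15 to 0.14, adjusted p = 0.986). The other 2 probes of Cdkn1b were under the limit in all arrays.

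**Figure D2:**
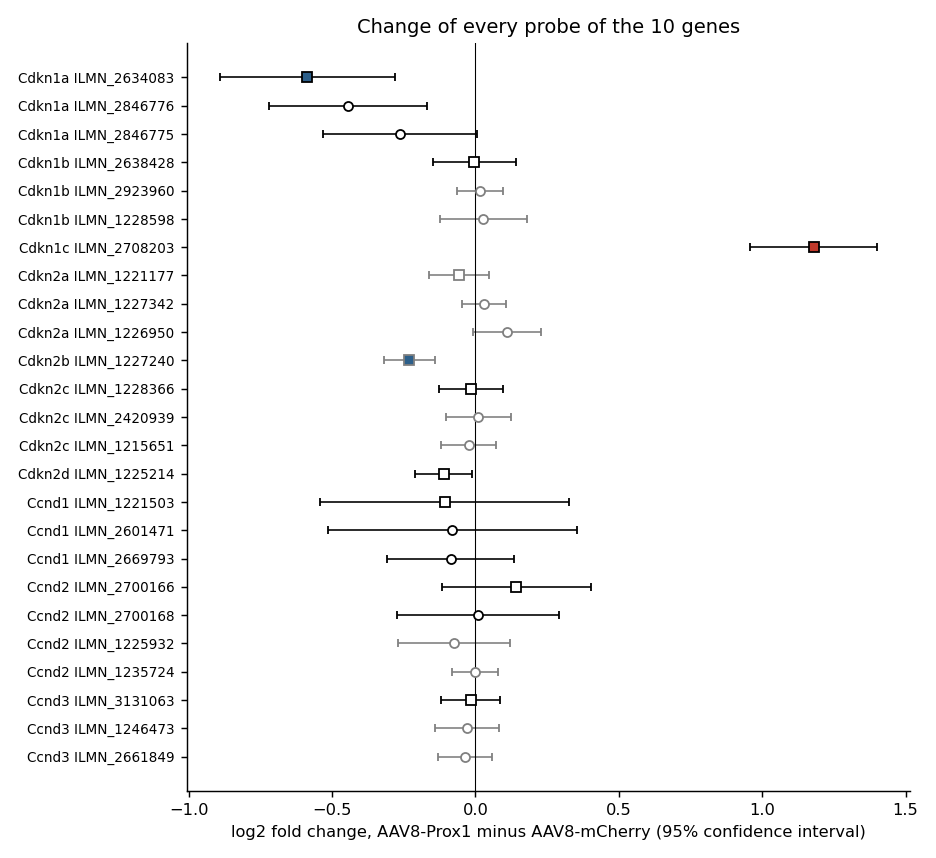
Log2 fold change of each of the 25 probes, AAV8-Prox1 minus AAV8-mCherry (x axis), with 95% confidence intervals from limma over 3 muscles per group. Squares are the brightest probe of a gene, circles the others, filled symbols passed an adjusted p under 0.05 (red higher, blue lower), and grey lines mark probes with a mean signal under 7. Cdkn1c, the brightest Cdkn1a probe and Cdkn2b are the 3 called probes.

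Of the INK4 genes, only Cdkn2b passed, and it did so under the limit above background. Its probe, for the gene of p15, gave 6.67, 6.65 and 6.67 with AAV8-Prox1 and 6.95, 6.88 and 6.85 in controls. The groups did not overlap (log2 fold change -0.23 ± 0.04 SE, adjusted p = 0.0124), but no array of either group reached 7, so no fold is given. The call was lost without AAV8-Prox1 replicate 2 (adjusted p = 0.0521). Cdkn2d, for p19, gave 7.10, 7.04 and 7.10 with AAV8-Prox1 and 7.12, 7.24 and 7.21 in controls. These groups did not overlap either, since the highest AAV8-Prox1 value of 7.10 lay just below the lowest control value of 7.12, and the gene did not pass (log2 fold change -0.11, 95% confidence interval -0.21 to -0.01, adjusted p = 0.257).

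Cdkn2c, for p18, gave 7.43, 7.36 and 7.43 against 7.51, 7.4 and 7.36 by its brightest probe, with overlapping groups (log2 fold change -0.02, 95% confidence interval -0.13 to 0.09, adjusted p = 0.944). Its other 2 probes were under the limit. Cdkn2a, whose transcripts encode p16 and the p53 activator ARF, had 3 probes, and none reached 7 in any array, with means of 6.47 to 6.72 over the groups. One Cdkn2a probe is annotated to a second RefSeq transcript, and it had 6.65 ± 0.03 with AAV8-Prox1 and 6.62 ± 0.01 in controls (SD, n = 3 each, adjusted p = 0.789). Neither transcript of Cdkn2a reached the limit of 7 with these probes, and no detection call was made.

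No D cyclin passed the test. Ccnd1 gave 8.55, 8.65 and 8.51 with AAV8-Prox1 and 8.71, 8.23 and 9.09 in controls by its brightest probe, so that the AAV8-Prox1 muscles lay within the range of the controls. The log2 fold change was -0.11, and its 95% confidence interval of -0.54 to 0.33 leaves room for changes of that size in either direction (adjusted p = 0.890). The other 2 Ccnd1 probes gave log2 fold changes of -0.08 and -0.09 (adjusted p = 0.927 and 0.792). The value rested on single controls. Without control replicate 3 the 3 probes gave 0.10, 0.10 and -0.02 (adjusted p = 0.847, 0.874 and 0.975), and without control replicate 2 they gave -0.33, -0.32 and -0.20 (adjusted p = 0.195, 0.0834 and 0.123).

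Ccnd2 gave 8.07, 8.26 and 8.05 with AAV8-Prox1 and 8.06, 7.73 and 8.16 in controls by its brightest probe. The groups overlapped (log2 fold change 0.14, 95% confidence interval -0.12 to 0.40, adjusted p = 0.664). The value was 0.02 without control replicate 2, 0.08 without AAV8-Prox1 replicate 2 and 0.23 without control replicate 3, and 0.02 in the average of all 4 probes. A second probe above background gave a log2 fold change of 0.01 (95% confidence interval -0.27 to 0.29, adjusted p = 0.983), and the remaining 2 had means under 7. Ccnd3, the D cyclin that rises when myoblasts differentiate, gave 8.99, 9.08 and 9.03 with AAV8-Prox1 and 9.05, 8.99 and 9.11 in controls. Its groups overlapped closely, and the interval was the narrowest among the D cyclins (log2 fold change -0.02, 95% confidence interval -0.12 to 0.09, adjusted p = 0.938). The other 2 Ccnd3 probes, annotated to another RefSeq transcript, had means of 6.97 and 6.62, under the limit.

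The control muscles differed from each other in Ccnd1, Ccnd2 and Cdkn1a in a shared order. All 3 Ccnd1 probes and both Ccnd2 probes above background were lowest in control replicate 2 and highest in control replicate 3. In contrast, all 3 Cdkn1a probes were highest in control replicate 2 and lowest in control replicate 3. These probes share arrays and genes, so they are not independent of each other. Among all 6734 genes above background, 15.1% followed the first order and 14.6% the second. The first order was found in 7 of the 13 probes above background for the 10 genes. They included Cdkn1c (10.68, 10.64 and 10.74) and the brightest Ccnd3 probe (9.05, 8.99 and 9.11), both with a narrow spread. The SD of Ccnd1 was 0.43 in the controls and 0.07 with AAV8-Prox1, where the median over genes above background was 0.103 and 0.0964, and 0.891% of these genes had an SD in the controls as high as that of Ccnd1. With AAV8-Prox1 the deviations of the 8 probes of Ccnd1, Ccnd2 and Cdkn1a from the group mean were no larger than 0.17 on the log2 scale. There, replicate 2 had the highest value of the brightest Ccnd1 and Ccnd2 probes and the lowest of the brightest Cdkn1a probe, opposite to control replicate 2. The other Ccnd1 probes and the dimmest Cdkn1a probe did not share this order. These orders were described after the values were seen and were not tested. Of 11 endothelial marker genes above background, 6 followed the order of Ccnd1 in the controls and none the reverse, for example Vwf with 10.06, 9.78 and 10.23. In other lists given below, 2 of 4 satellite cell, 3 of 8 muscle fibre, 1 of 4 fibroblast and 1 of 2 Schwann cell markers above background followed it. So did 4 of 10 imprinted genes. None did among 10 G1 genes, 4 S phase and mitosis genes, 10 ubiquitin ligase genes and 11 p53 genes. The same held for 9 regulators, 10 denervation-response genes, 4 macrophage markers and 5 smooth muscle and pericyte markers. The reverse order, that of Cdkn1a, was followed by 2 of 10 G1 genes, 2 of 10 denervation-response genes and at most 1 gene of each other list. Of the 9 regulators it was Myod1, with 7.97, 8.05 and 7.54 in the controls. Foxo1, a transcription factor that can activate Cdkn1a, gave 8.11, 9.07 and 8.13. It was highest in control replicate 2 as well, but lowest in replicate 1, so it did not follow the full order. Both regulators are named here after their values were seen. The part of these genes in the order was not tested.

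**Figure D3:**
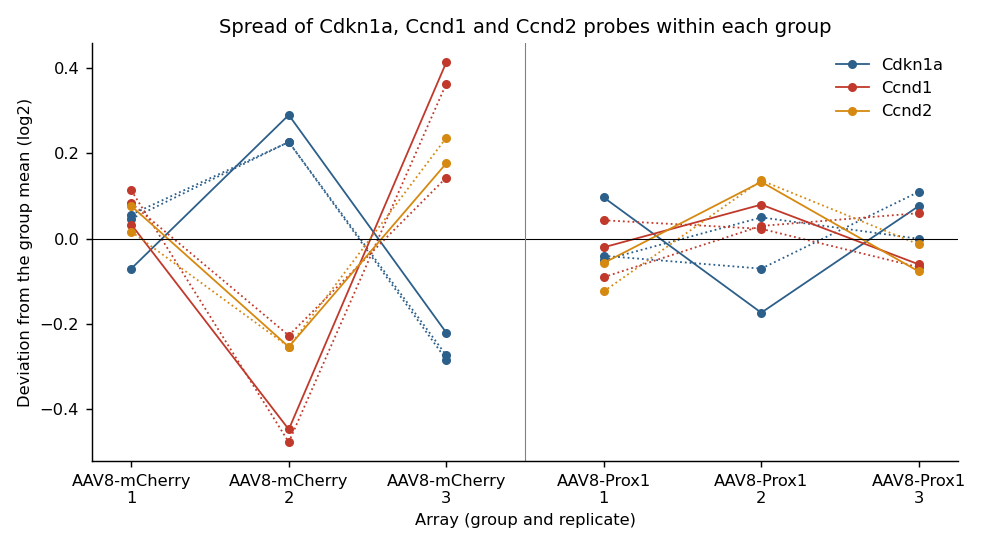
Deviation of each array from its group mean (y axis, log2) for the 8 probes of Cdkn1a, Ccnd1 and Ccnd2 with a mean signal of 7 or more, in the 3 AAV8-mCherry and 3 AAV8-Prox1 arrays (x axis). Solid lines are brightest probes and dotted lines other probes of the same gene, and in control replicate 2 the Cdkn1a probes lie above the mean while those of Ccnd1 and Ccnd2 lie below it.

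Among the partners of these genes in G1, Rb1 and E2f2 rose. Of 22 measured genes for G1 kinases, E-type cyclins, pocket proteins and E2F factors, 2 were higher, none was lower by its brightest probe and 20 did not pass, a share near the 9.44% of all genes. Of the 10 with a mean signal of 7 or more 2 were called, where 24.3% of all such genes were, 12.9% higher and 11.3% lower. Rb1, which encodes the retinoblastoma protein, gave 8.74, 8.74 and 8.83 with AAV8-Prox1 and 7.87, 7.97 and 7.91 in controls. The groups lay well apart, and Rb1 was 1.81-fold higher (log2 fold change 0.85 ± 0.04 SE, adjusted p = 9.84e-05). A second Rb1 probe gave 7.73, 7.30 and 7.36 against 7.09, 7.03 and 7.22, also without overlap, and did not pass (log2 fold change 0.35, adjusted p = 0.145). E2f2 rose by 0.58 on the log2 scale (adjusted p = 0.00886), and a second probe above background gave 0.30 (adjusted p = 0.0224). Cdk4, the kinase partner of D cyclins, differed by 0.20 on the log2 scale (adjusted p = 0.171), and E2f6, a repressive E2F, by -0.30 at its brightest probe (adjusted p = 0.158). All 6 probes of E2f6 were lower without overlap, however, and 4 of the dimmer ones passed, at -0.41, -0.20, -0.43 and -0.56 (adjusted p = 0.0339, 0.0308, 0.00305 and 0.0185). Cdk6, Ccne1, Ccne2, Rbl1 and Rbl2 were under the limit. The median log2 fold change of the list was 0.05, over all its genes and over those above background, where all genes above background had 0.01.

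Genes used in S phase and mitosis were mostly under the limit, at a mean signal of 7 or more for 4 of 27 measured genes. Higher were Cenpa, Mcm4 and, under the limit, Prc1 and Cdca3. Lower was Aurka, and 22 did not pass, where 9.44% of all genes were called. Among the 4 above the limit, 2 were higher and 1 lower, beside 24.3% of all such genes called. Cdca3 failed without AAV8-Prox1 replicate 2 or 3 or control replicate 2 or 3. The median log2 fold change was 0.0067 over the 27 genes and 0.17 over the 4 above background. Cenpa, the histone variant of centromeres, ranged from 9.70 to 10.06 with AAV8-Prox1 and gave 8.57, 8.28 and 8.32 in controls (log2 fold change 1.53 ± 0.11 SE, adjusted p = 0.000378). A second Cenpa probe stayed at background in all arrays. Mcm4, a subunit of the replicative helicase, rose by 0.54 on the log2 scale (adjusted p = 0.00968), with its other 2 probes at background, whereas Mcm2, another subunit, had -0.19 (adjusted p = 0.0563). Aurka, a mitotic kinase, fell by 0.74 on the log2 scale (adjusted p = 0.000826). The replication clamp Pcna, the mitotic kinase Cdk1, the topoisomerase Top2a, cyclin A2 (Ccna2) and the ribonucleotide reductase subunit Rrm2 were all under the limit.

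Among 13 measured genes of ubiquitin ligases that degrade D cyclins or CDK inhibitors, 2 rose, 1 fell and 10 did not pass. All called genes were among the 10 above the limit, where 24.3% of all such genes were called, against 9.44% of all genes. The lower gene was Fbxo31, an F-box protein known to direct cyclin D1 to degradation after DNA damage. It gave 11.75, 11.69 and 11.46 with AAV8-Prox1 and 12.27, 12.65 and 12.40 in controls (log2 fold change -0.81 ± 0.11 SE, adjusted p = 0.00517). The other 2 Fbxo31 probes also passed, at -0.77 and -0.60, so that all 3 probes gave the same direction. Ddb1, an adaptor of Cul4 ligases, was higher by 0.51 (adjusted p = 0.00329). Cul4a was higher by 0.33 (adjusted p = 0.0331) and no longer passed without AAV8-Prox1 replicate 2 or 3, or without control replicate 1 or 2, and its second probe above the limit gave 0.03 (adjusted p = 0.907). Fbxw7, an F-box protein, differed by -0.32 (adjusted p = 0.0723). Skp2 and Cks1b, which mark p27 for degradation, were under the limit. The median of the list was 0.03 on the log2 scale, and -0.02 over its 10 genes above background.

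**Figure D4:**
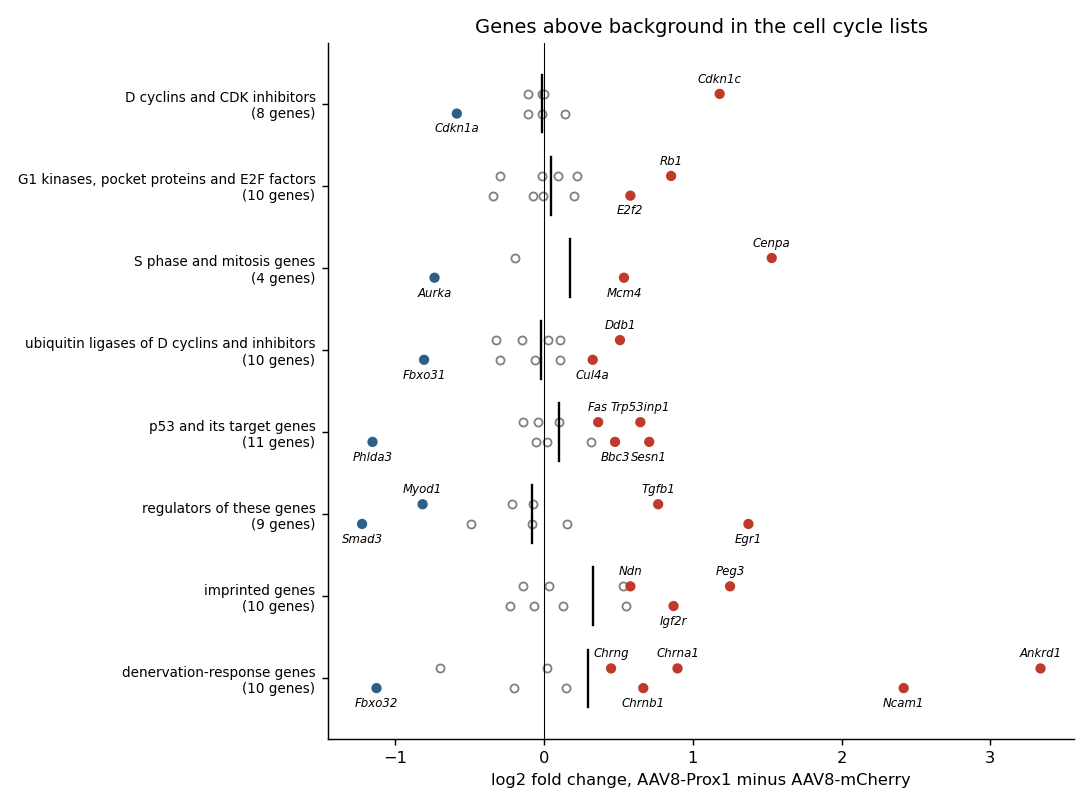
Log2 fold change, AAV8-Prox1 minus AAV8-mCherry (x axis), of the genes with a mean signal of 7 or more in each list (y axis), by their brightest probe. Filled points passed an adjusted p under 0.05 (red higher, blue lower), open points did not, and black bars are medians over the points shown. Genes of 1 list moved both ways, as with Cdkn1c at 1.18 and Cdkn1a at -0.59.

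Of 20 measured genes for p53 targets and regulators, among which Cdkn1a would count, 4 rose, 1 fell and 15 did not pass. All called genes were among the 11 above background, where 24.3% of all such genes were called, against 9.44% of all genes. The median log2 fold change was 0.01, and 0.10 over the 11 above background. Sesn1, a stress-induced inhibitor of mTORC1 signalling, rose by 0.71 on the log2 scale (adjusted p = 0.00116), Trp53inp1 by 0.65 (adjusted p = 0.00447), and the death receptor gene Fas by 0.36 (adjusted p = 0.0129). Bbc3 was the other higher gene and failed without AAV8-Prox1 replicate 1 and without control replicate 1 or 2. Fas failed without control replicate 3 (adjusted p = 0.0504). Phlda3, an inhibitor of Akt, fell by 1.15 on the log2 scale (adjusted p = 0.00781), and its second probe by 1.14. Mdm2, the ligase that p53 induces against itself, differed by -0.14 on the log2 scale (adjusted p = 0.688), and Ccng1 by -0.06 (adjusted p = 0.93). The p53 targets beside Cdkn1a included higher, lower and uncalled genes, and the part of p53 in the change of Cdkn1a was not tested.

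Of 15 measured genes for known regulators of these 10 genes, 2 rose, 2 fell and 11 did not pass. All called genes were among the 9 above background, where 24.3% of all such genes were called, against 9.44% of all genes. Myod1, the myogenic factor that activates Cdkn1a in differentiating myoblasts, gave 7.13, 6.99 and 6.99 with AAV8-Prox1 and 7.97, 8.05 and 7.54 in controls, and the groups lay apart (log2 fold change -0.82 ± 0.12 SE, adjusted p = 0.00901). Smad3, which carries TGF-β signals, fell by 1.22 (adjusted p = 0.00252), and its second probe by 1.24. Egr1, an immediate early transcription factor, rose by 1.37 (adjusted p = 0.00151). Tgfb1, the ligand of that pathway, rose by 0.77 (adjusted p = 0.0268) and failed without any 1 array other than AAV8-Prox1 replicate 1. Foxo1 differed by -0.49 (adjusted p = 0.4). Myc and Plagl1 were under the limit. The median of this list was -0.04, and -0.08 over its 9 genes above background.

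Cdkn1c belongs to a cluster of imprinted genes on chromosome 7, and other imprinted genes were listed beside it. Of 23 measured, 3 were higher, none was lower and 20 did not pass, and 10 had a mean signal of 7 or more. All 3 were among these 10, where 24.3% of all such genes were called, against 9.44% of all genes. None of the 3 higher genes, Peg3, Igf2r and Ndn, lies in the cluster of Cdkn1c. Peg3, a zinc finger protein expressed from the paternal copy, gave 10.60, 10.55 and 10.70 with AAV8-Prox1 and 9.45, 9.47 and 9.18 in controls (log2 fold change 1.25 ± 0.08 SE, adjusted p = 0.000255). A second Peg3 probe above background gave 0.63, and the other 2 were at background. Igf2r, the receptor that clears Igf2, rose by 0.87 (adjusted p = 0.000399), and its second probe by 0.50. Ndn rose by 0.58 (adjusted p = 0.0274) and failed without any 1 of the controls. Grb10, an adaptor of insulin signalling, had 0.55 (adjusted p = 0.0604) at its brightest probe and -0.09 (adjusted p = 0.58) at a second probe that lay at the limit. Of the genes of the Cdkn1c cluster, Kcnq1ot1, the non-coding RNA that silences the paternal copies, differed by 0.03 on the log2 scale (adjusted p = 0.883), Cd81 by 0.13 (adjusted p = 0.698) and Tssc4 by -0.07 (adjusted p = 0.533), while Kcnq1, Phlda2, Slc22a18 and Ascl2 were under the limit. The median was 0.02 over the 23 genes, most of which lay at background, and 0.33 over the 10 above it.

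A list of genes known to respond to loss of the nerve was added because Cdkn1a is known to rise in denervated muscle. Of its 15 measured genes, 6 rose, 1 fell and 8 did not pass, where 9.44% of all genes were called. Above background 5 of 10 rose and 1 fell, beside 24.3% of all such genes called. The higher genes were Ankrd1, Ncam1, the acetylcholine receptor subunits Chrna1, Chrnb1 and Chrng, and Musk. Ankrd1, a stress-responsive ankyrin repeat protein, gave 12.55, 12.06 and 12.07 with AAV8-Prox1 and 8.55, 8.95 and 9.17 in controls and rose 10.1-fold (3.34 on the log2 scale, adjusted p = 0.000134). Ncam1, a cell adhesion molecule, gave 9.88, 10.51 and 10.23 against 7.58, 8.08 and 7.71 and rose 5.34-fold (2.42 on the log2 scale, adjusted p = 0.000392), with its other 3 probes at background. The groups lay far apart for both genes. Chrna1 rose by 0.90 on the log2 scale (adjusted p = 0.000859) and Chrnb1 by 0.67 (adjusted p = 0.00436). The second probe above the limit passed for Chrna1 (0.58, adjusted p = 0.032) and not for Chrnb1 (0.30, adjusted p = 0.104). Chrng failed without AAV8-Prox1 replicate 2 or 3 and without control replicate 1 or 3. Musk, under the limit in all arrays, failed in each fit that left out 1 array other than AAV8-Prox1 replicate 2. The lower gene was the ubiquitin ligase Fbxo32, which fell by 1.13 (adjusted p = 0.0166) and failed without any 1 of the AAV8-Prox1 muscles. Gadd45a, which is induced by denervation and by p53, gave 9.67, 9.80 and 9.85 against 9.88, 9.74 and 9.65 (adjusted p = 0.964). Trim63 and Hdac4 were lower without overlap, at -0.70 and -0.20, and did not pass (adjusted p = 0.0523 and 0.122). Myh8 had 0.15 (adjusted p = 0.839). Chrnd, Myog, Runx1 and Dach2 were under the limit and did not pass. The median of the list was 0.03, and 0.30 over its 10 genes above background.

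Some markers of macrophages, endothelium, fibroblasts and fibres differed between the groups, and those of 5 other cell types did not pass. Of 11 measured macrophage markers, 3 were higher and none lower, with 2 of the 4 above the limit called against 24.3% of all such genes, and the sum of the linear signals of all 11 ran from 1733 to 1934 with AAV8-Prox1 and from 1360 to 1582 in controls. Of 12 endothelial markers, 4 of the 11 above the limit were lower and none higher, with sums of 5943 to 6575 and 7495 to 9100. Of all genes above the limit, 11.3% were lower and 12.9% higher. Of 8 fibroblast markers, 1 of the 4 above the limit was higher, beside the same 12.9%, with sums of 1782 to 1868 and 1147 to 1598. None of 8 satellite cell markers, 7 smooth muscle and pericyte markers, 7 lymphocyte markers, 4 Schwann cell markers or 4 adipocyte markers passed. Of the muscle fibre markers, all above the limit, 4 of 8 were lower, beside the same 11.3%, with sums of 119721 to 124189 and 130856 to 132398. Among these 4, Myh1, Myh4 and Tnnt3 encode fast fibre isoforms. Mb encodes myoglobin, in which the paper describes slow type I fibres as rich, so the lower markers were not fast fibre genes alone. The other 4 did not pass, with log2 fold changes of 0.07 for Acta1, 0.13 for Ttn, -0.05 for Pvalb and -0.04 for Ckm. The called markers were C1qc, Mrc1 and Cd14, the last under the limit in all arrays, for macrophages, Eng, Flt1, Robo4 and Tie1 for endothelium, Lum for fibroblasts, and Mb, Myh1, Myh4 and Tnnt3 for fibres. Of these, Eng, Myh1 and Tnnt3 passed whichever array was left out, and each of the others failed without at least 1 array. Among markers above the limit that did not pass, C1qb differed by 0.55 on the log2 scale (adjusted p = 0.0736), Lyz2 by 0.67 (adjusted p = 0.109) and Sdc4 by -0.36 (adjusted p = 0.0736). The satellite cell markers Vcam1, Itga7 and Cdh15, the fibroblast markers Pdgfra, Col1a1 and Fbln1, the smooth muscle and pericyte markers Acta2, Myh11, Pdgfrb and Rgs5 and the Schwann cell markers Sox10 and Mbp had adjusted p-values of 0.165 to 0.914. The defining macrophage marker Adgre1 was under the limit in all arrays, as were the pan-leukocyte marker Ptprc and the satellite cell marker Pax7. The part of these cells in the changes of Cdkn1c and Cdkn1a was not tested.

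The genes whose profile over the 6 arrays was most like that of Cdkn1c were Pcbp1, an RNA-binding protein, Myl12a, a light chain of non-muscle myosin, and Cidea, a lipid droplet protein. Likeness was measured as the root mean square difference between profiles, each centred on its own mean, among 6733 other genes above background. It was 0.08 for Pcbp1, with 10.82, 10.98 and 10.76 against 9.70, 9.62 and 9.61 in controls, and 0.11 for both Myl12a and Cidea. Cidea was under the limit in every control and was at least 1.73-fold higher (adjusted p = 0.000323). By the same rule Ogfod3, Dap3 and Spryd4 were nearest to Cdkn2b, but all 6 values of Cdkn2b lay under the limit, so this likeness has no reading. The measure was also taken for Cdkn1a, the lower gene above background, a choice made after its values were seen. Nearest to Cdkn1a were Rab12, a small GTPase, Pde4a, a phosphodiesterase of cyclic AMP, and Ptp4a3, a phosphatase, at 0.11, 0.11 and 0.12. Rab12 had its highest control value in replicate 2 and its lowest in replicate 3, as Cdkn1a had, and did not pass (log2 fold change -0.42, adjusted p = 0.148). Pde4a and Ptp4a3 passed, and Pde4a, under the limit in every AAV8-Prox1 muscle, was at least 1.40-fold lower (adjusted p = 0.00201). Since the profiles hold both groups, the measure includes the group difference itself.

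**Figure D5:**
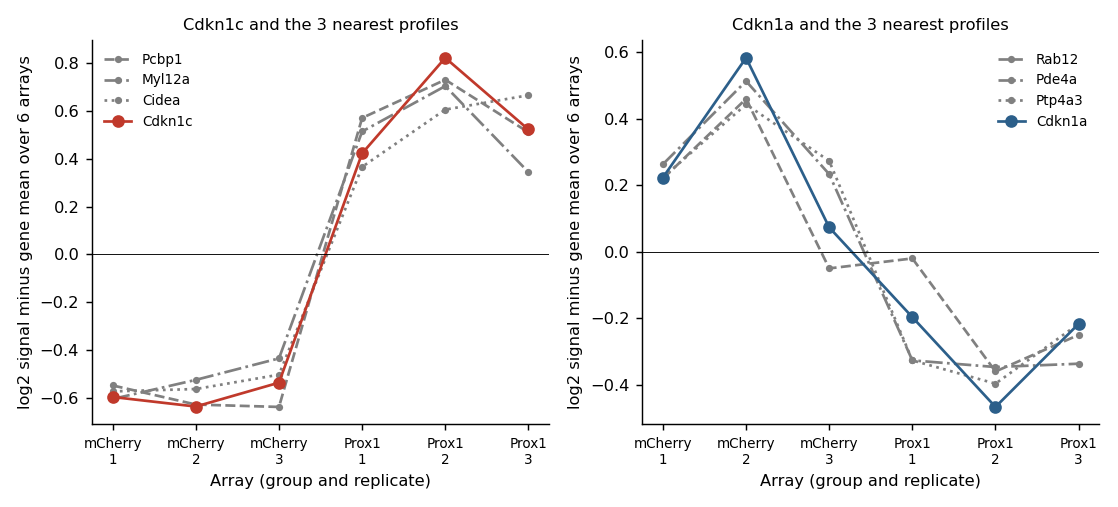
Log2 signal minus the gene's own mean over the 6 arrays (y axis) in each array (x axis) for Cdkn1c with its 3 nearest genes (left) and Cdkn1a with its 3 nearest genes (right). Cdkn1c and its neighbours lie close together among the controls, whereas Cdkn1a and its neighbours peak in control replicate 2.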

How the data were processed

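RNA of 6 TA muscles, 3 per group, was hybridised to Illumina Mouse WG-6 v2 bead arrays. Per the methods, the authors used GenomeStudio for quality control and Chipster for quantile normalization, and their deposited log2 values, rounded to 2 decimals, were used as they stand. Versions and any background correction are not given in the sources used here. The 12 columns of a raw table could not be tied to samples by name and were left out. The number of arrays limits the precision.

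Groups were compared over all 45281 probes by limma 3.58.1 (R 4.3.3) with lmFit and eBayes and no block, with Benjamini-Hochberg adjustment a threshold of 0.05 and two-sided p-values. P-values measure the spread between these muscles only. Of the probes, 34885 carried 1 gene symbol, 18 several and 10378 none, and gene IDs of 34807 were found in the RefSeq table with no symbol changed. Each gene stands by its brightest probe in the mean over all arrays. Where all arrays of 1 group lie under the limit of 7, the fold is a bound computed against 7. The fit was tested on simulated data with known changes and independent noise, which cannot show effects of pairing or of single arrays.

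The 10 genes, the lists and the limit of 7 were chosen with earlier results of these data known. From each list up to 4 genes above background with the smallest adjusted p were named, and for the called gene with the smallest adjusted p in each direction (Cdkn1c and Cdkn2b) the 3 nearest profiles, to which Cdkn1a was added after its values were seen. Genes that make up a count, under-limit genes and genes named for their role were chosen after their values were seen. Deviations from the group means of arrays with equal replicate numbers correlated at -0.18, 0.05 and -0.12 over probes above the limit. These values gave no sign of pairing by number, but they cannot show which muscles share a mouse. Alternatives were the replicate block, trend and robust estimation, each array left out, a filter on dim probes, median centring, cyclic loess, the mean over probes, and a minimum absolute log2 fold change of 0.5.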

Additional observations from a re-analysis of the deposited data

How the results depend on the processing

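Cdkn1c was called higher under each alternative run for it, at log2 fold changes of 1.06 to 1.26, and it was the 1 gene of the family called higher in each. For Cdkn1c, median centring, the mean over its single probe and the minimum fold change add no separate support. The count of lower genes, 2 in the fit reported, was 1 with the replicate block (Cdkn1a lost, adjusted p = 0.144, in a fit that called 721 genes higher and 559 lower against 997 and 802), 1 in the mean over all probes (Cdkn1a lost), 1 with a filter on dim probes (Cdkn2b removed by the filter), and 1 with a minimum absolute log2 fold change of 0.5 (Cdkn2b too small), and it ranged from 0 (without AAV8-Prox1 replicate 2) to 2 when 1 array was left out. Trend and robust estimation, median centring and cyclic loess left it at 2. Uncalled values near 0 changed sign. Cdkn1b was at 0.0047 with cyclic loess and 0.013 in the mean over its probes, Cdkn2a at 0.028 in the mean over its probes, and over the fits that left out 1 array the log2 fold change ranged from -0.062 to 0.048 for Cdkn1b, -0.048 to 0.027 for Cdkn2c, -0.33 to 0.10 for Ccnd1 and -0.047 to 0.013 for Ccnd3. Values from the raw signals and a slide block were not run, because no raw column could be tied to a sample and no slide is given. Cdkn1b, Cdkn2a, Cdkn2b and Cdkn2d lay near background, which limits what their changes show.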
